A study of Rattus norvegicus with 6 samples.

Results

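Transcripts of 8 genes for hepatocyte nuclear factors, FOXA factors and related islet regulators were followed in INS-1 cells, an insulin-secreting line from a rat insulinoma, which stands for pancreatic beta cells in culture. The genes were taken by name from the 35362 gene rows of the deposited table (Hnf4a, Hnf4g, Foxa1, Foxa2, Foxa3, Glis3, St18 and Myt1), and all 8 were found. The cells had been transduced with retroviruses carrying Flag-tagged menin, either the S487D mutant (3 libraries), in which aspartate replaces a serine, or the S487A mutant (3 libraries), in which alanine does. The negative charge of aspartate is used to mimic phosphorylation, which alanine cannot undergo. Both groups overexpress a menin mutant, and cells with wild-type menin or no transgene were not analysed here, so each direction below is S487D relative to S487A. The labels mention no removal of the rat's own menin, do not give the species of the transgene, and name no separate cultures, clones or transductions behind the 3 libraries of a group. P-values therefore measure the spread between these libraries, which may be technical, and an effect of the mutant cannot be told apart from other differences between the transduced populations. The series concerns GLP-1 signalling to menin, and the comparison is of transcript levels between cells given menin with either residue at this site.

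HNF4 proteins are nuclear receptors, FOXA proteins are forkhead factors that can bind closed chromatin and make it accessible, GLIS3 is a Krüppel-like zinc finger factor, and ST18 and MYT1 share another kind of zinc finger. In liver and gut, HNF4 and FOXA factors drive genes of secretion, lipid handling and metabolism. In beta cells they act with homeobox factors on genes of glucose sensing and insulin secretion, and heterozygous loss of HNF4A causes a form of maturity-onset diabetes of the young in humans. Loss of GLIS3 in humans causes neonatal diabetes, and MYT1-type factors act in endocrine cell formation in mice.

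Libraries held 9444801 to 10867549 reads in listed genes. Men1, the menin gene, had 113, 103 and 119 RPKM in S487D and 71.2, 76.7 and 75.0 RPKM in S487A. These groups do not overlap, so Men1 level differed along with the residue, and the part of either in the results cannot be told apart. Whether these reads include the transgene is not known. All 14 listed beta cell markers were above the filter for testing, and of these 9 rose, 3 fell and 2 passed no test. Of 18 hepatocyte markers 13 were under the filter in these cells, with Ahsg and Cyp3a2 at 0 in all libraries and the albumin gene Alb at a mean of 0.0175 RPKM in S487D and 0 in S487A. Of the other 5, 4 fell, among them Fgg, which reached 1 RPKM in S487A only and so had to differ to be tested. All 15 fibroblast, vessel and immune cell markers were under the filter. In bulk RNA, fewer cells expressing a gene and less RNA per cell cannot be told apart.

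Of the 8 factors, 1 rose in S487D cells (Foxa3), 4 fell (Hnf4a, Foxa1, St18 and Myt1), 2 did not pass the test (Foxa2 and Glis3), and Hnf4g was too weakly transcribed to be tested. The changes were modest, from 1.19-fold for Hnf4a to 1.49-fold for Foxa3. Tests were made with limma on log2(RPKM + 1) over 12527 genes with at least 1 RPKM in at least 3 libraries, with Benjamini-Hochberg adjustment and a threshold of 0.05. RPKM counts reads per kilobase of gene, scaled to the size of the library, so levels can be compared roughly between genes. Such comparison rests on the deposited length of each gene, which need not be that of the transcripts present. Calls were common in this comparison: 44.4% of all tested genes passed, 20.1% upward and 24.3% downward, and the groups' values did not overlap in 54.6%. The 5 called factors of 7 tested (71.4%) are to be read against that background, and the same 5 are those whose groups did not overlap. The median log2 change was -0.25 over the 7 tested factors and -0.01 over all tested genes, with a median size of 0.17 over all. As deposited, 45.3% of all calls were upward, against 58.9% after median centring and 55.4% after quantile normalization, but each of the 5 factor calls kept its direction and its side of the threshold under both. For a single value, the exact permutation test over the 6 libraries can give no two-sided p under 0.1.

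**Figure D1:**
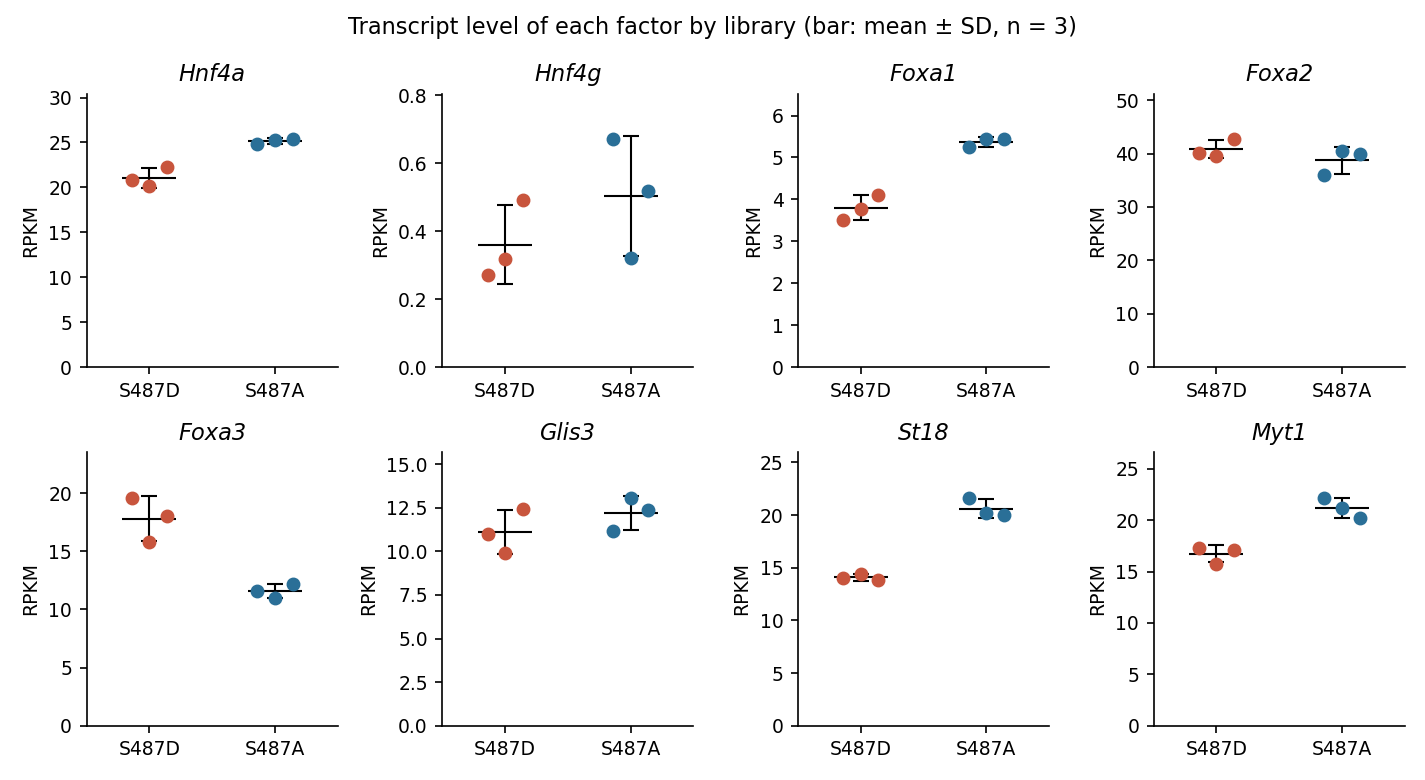
RPKM of each factor in each library (points; S487D red, S487A blue), with the mean and SD of 3 libraries, each axis starting at 0. Foxa3 lies higher in all S487D libraries, Hnf4a, Foxa1, St18 and Myt1 lie lower in all S487D libraries, and the groups of Hnf4g, Foxa2 and Glis3 overlap.

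Hnf4a, on chromosome 3 from 159902441 to 159965003 (rn6), encodes the HNF4 receptor of liver, gut and islets. It had 20.8, 20.1 and 22.2 RPKM in S487D and 24.8, 25.3 and 25.4 RPKM in S487A. Every S487D library was below every S487A library, and the S487A libraries lay closer together than the S487D libraries. The mean was 21.1 ± 1.1 RPKM in S487D and 25.2 ± 0.29 in S487A (SD, n = 3 each). The log2 change was -0.25 (SE 0.050, limma adjusted p = 0.00309), and 33.8% of tested genes changed by more. Over the alternatives named at the end, the change ranged from -0.29 without S487D replicate 3 to -0.19 with median centring. The value rests on 905 to 1296 reads per library. An uncharacterized transcript on the other strand overlaps the Hnf4a row, with at most 17 reads in a library, and since the labels do not say that strand was kept, reads of the overlap could be counted for either.

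In humans and mice Hnf4a is read from a promoter used mainly in liver and from a distal one used in islets. RefSeq lists 2 starts of the rat gene, 35616 bases apart (GRCr8, a later build than that of the table), and the gene-level RPKM sums both. The 250 bases before each start are shown because the drop in Hnf4a could lie in transcripts of either, which these values do not separate. Capitals mark letters of the motifs searched on both strands, TGTTTNC and TGTTTG for forkhead factors, AGGTCA for nuclear receptor half-sites, AAAGTTT for MYT1, TGACGTCA for the cAMP response element and TATAAA for the TATA box. TGTTTNC and TGTTTG share letters and can overlap. The upstream window is chr3:172605970-172606219 and the downstream window chr3:172641586-172641835, both on the + strand of GRCr8.
Hnf4a upstream start: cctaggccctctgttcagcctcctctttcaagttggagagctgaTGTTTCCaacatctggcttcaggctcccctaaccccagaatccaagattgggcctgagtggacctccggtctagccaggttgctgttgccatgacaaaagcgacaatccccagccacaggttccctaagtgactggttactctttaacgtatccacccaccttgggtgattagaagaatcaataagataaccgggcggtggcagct
Hnf4a downstream start: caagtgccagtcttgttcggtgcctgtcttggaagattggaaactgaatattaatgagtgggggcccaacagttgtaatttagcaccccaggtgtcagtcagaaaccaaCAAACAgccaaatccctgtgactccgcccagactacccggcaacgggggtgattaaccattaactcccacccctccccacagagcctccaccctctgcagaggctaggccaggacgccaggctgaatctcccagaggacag

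The upstream window holds a match to TGTTTNC from 206 to 200 bases before the start, and 18.3% of 33465 promoter windows of this length hold such a match. The downstream window holds TGTTTG on the reverse strand, from 141 to 136 bases before the start, as 15.5% of windows hold on either strand. Neither holds the other motifs. A match is a description of letters and no evidence of binding.

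Hnf4g, the second HNF4 receptor gene, known mainly from gut, is on chromosome 2 from 100225880 to 100372728. It had 0.272, 0.317 and 0.492 RPKM in S487D and 0.671, 0.320 and 0.519 RPKM in S487A, from 12, 13 and 20 reads in S487D and 29, 15 and 23 reads in S487A. The groups overlap. Hnf4g stayed below the filter of 1 RPKM. With no filter its log2 change was -0.14 (limma adjusted p = 0.428). It made up 1.67 ± 0.45% of the summed HNF4 level in S487D and 1.96 ± 0.69% in S487A, so Hnf4a supplied nearly all HNF4 transcript in both. The summed level was 21.4 ± 1.2 RPKM in S487D and 25.7 ± 0.21 in S487A (exact permutation p = 0.1, two-sided).

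The FOXA genes moved in different directions. Foxa3, on chromosome 1 from 79921292 to 79930219, encodes the FOXA factor best known from liver. It had 19.6, 15.8 and 18.0 RPKM in S487D and 11.6, 11.0 and 12.2 RPKM in S487A. All S487D libraries lay above all S487A libraries, with the wider spread in S487D. It rose 1.49-fold (log2 change 0.58, SE 0.077, 95% interval 0.40 to 0.75, limma adjusted p = 2.80e-04), to a mean of 17.8 ± 1.9 RPKM in S487D, against 11.6 ± 0.57 in S487A. Only 8.65% of tested genes changed by more. The row is short, at 1496 bases, and its 174 to 301 reads per library give a counting error of up to 7.58% in a library.

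Foxa1, on chromosome 6 from 78516579 to 78549669, encodes a FOXA factor of many epithelia and, in mice, of alpha and beta cells. It had 3.51, 3.78 and 4.11 RPKM in S487D and 5.24, 5.44 and 5.43 RPKM in S487A. The groups do not overlap, and it fell by 0.41 on the log2 scale (SE 0.072, limma adjusted p = 0.00146). It was the most weakly transcribed of the tested factors, with 78 to 128 reads per library. A transcript on the other strand overlaps its row, with at most 2 reads in a library. As Foxa1 is near the pseudocount of 1 RPKM, its log2 change was larger, at -0.49 and -0.50, with pseudocounts of 0.1 and 0.01. The change was smaller, at -0.31 and -0.35, with quantile normalization and median centring.

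Foxa2, on chromosome 3 from 142383093 to 142387493, encodes the FOXA factor that in mouse beta cells is needed for normal insulin secretion. It had 40.0, 39.6 and 42.7 RPKM in S487D and 35.9, 40.6 and 39.9 RPKM in S487A. The groups overlap, with the lowest value in S487A replicate 1. The log2 change was 0.07 (SE 0.056, limma adjusted p = 0.33), with a 95% interval of -0.05 to 0.20, that is 0.96-fold to 1.15-fold. Without S487A replicate 1 the log2 change was 0.02. A rise of Foxa2 as large as that of Foxa3 lies outside this interval.

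Foxa2 was the most abundant of the 8 factors in both groups and the main FOXA transcript. It made up 65.4 ± 1.8% of the summed FOXA level in S487D and 69.5 ± 1.5% in S487A. Foxa3 made up 28.5 ± 2.3% in S487D and 20.8 ± 1.4% in S487A, and Foxa1 made up 6.09 ± 0.47% in S487D and 9.64 ± 0.26% in S487A. None of these shares overlaps between groups. The shares are parts of the same sum and so are not separate results, and Foxa2 itself did not pass the test. The summed FOXA level was 63.2, 59.1 and 64.9 RPKM in S487D and 52.7, 57.0 and 57.5 RPKM in S487A, again with no overlap. Between paralogs, the log2 ratio of Foxa3 to Foxa1, on log2(RPKM + 1), was 1.97 ± 0.20 in S487D and 0.98 ± 0.071 in S487A. The log2 ratio of Foxa3 to Foxa2 was -1.15 ± 0.14 in S487D and -1.66 ± 0.12 in S487A, and that of Foxa1 to Foxa2 was -3.12 ± 0.055 in S487D and -2.64 ± 0.068 in S487A. Each of these sums, shares and ratios gave the smallest two-sided exact permutation p possible, 0.1, or 0.117 adjusted over the 14 quantities compared, so none passes 0.05 on its own.

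**Figure D2:**
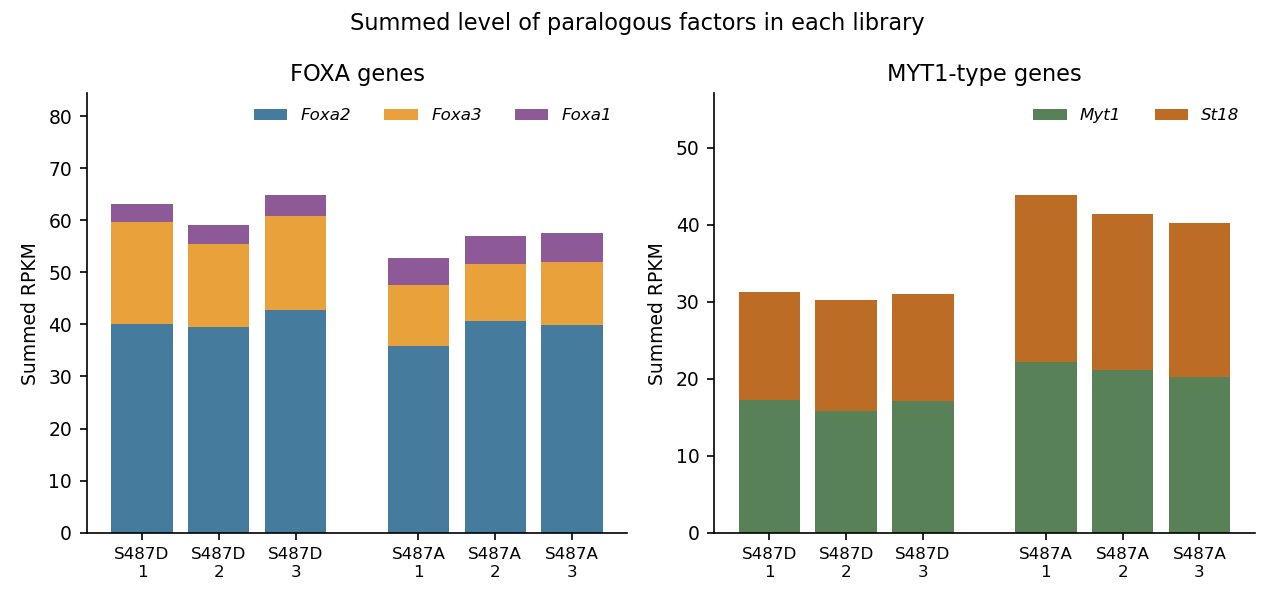
Summed RPKM of the FOXA genes (left) and of the MYT1-type genes (right) in each library, with 1 coloured segment per gene and the axis starting at 0. The FOXA sum is 59.1 to 64.9 RPKM in S487D and 52.7 to 57.5 RPKM in S487A, with a wider Foxa3 segment in S487D, and the MYT1-type sum is 30.2 to 31.3 RPKM in S487D and 40.2 to 43.9 RPKM in S487A.

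The promoter windows of Foxa3 and Foxa2 are shown together because Foxa3 is the FOXA gene that rose and Foxa2 the most abundant one, and the windows differ in base composition. The Foxa3 window, chr1:87799486-87799735 on the - strand of GRCr8, is 69.6% G and C, and the Foxa2 window, chr3:155927509-155927758 on the - strand, is 42.8%, against a median of 51.2% over all windows. The deposited row of Foxa2, on rn6, gives the + strand, and this disagreement was not resolved. Capitals mark the same motifs as above.
Foxa3: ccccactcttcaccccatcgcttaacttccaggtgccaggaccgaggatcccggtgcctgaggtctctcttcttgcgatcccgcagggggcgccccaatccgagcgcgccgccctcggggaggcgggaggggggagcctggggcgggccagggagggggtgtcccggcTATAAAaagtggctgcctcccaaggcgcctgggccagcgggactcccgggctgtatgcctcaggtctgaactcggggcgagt
Foxa2: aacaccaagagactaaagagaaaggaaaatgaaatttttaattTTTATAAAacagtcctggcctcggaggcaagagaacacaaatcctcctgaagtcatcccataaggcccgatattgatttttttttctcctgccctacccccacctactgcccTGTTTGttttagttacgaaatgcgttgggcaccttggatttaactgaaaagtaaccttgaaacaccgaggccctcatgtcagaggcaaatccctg

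The Foxa3 window holds TATAAA from 82 to 77 bases before the listed start and no other motif searched. The Foxa2 window holds TGTTTG, the forkhead letters, from 95 to 90 bases before the start. It also holds TATAAA on both strands between 207 and 200 bases before the start. A TATAAA match is found in 12.9% of all windows.

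Glis3, on chromosome 1 from 246380817 to 246564385, encodes a factor that activates insulin transcription in mouse and rat beta cells. It had 11.0, 9.90 and 12.4 RPKM in S487D and 11.2, 13.1 and 12.4 RPKM in S487A. The groups overlap. The log2 change was -0.13 (SE 0.085, limma adjusted p = 0.253), with a 95% interval of -0.32 to 0.06, so a fall as large as that of St18 lies outside it and a fall as large as that of Hnf4a inside it. The spread between libraries, 11.5% of the mean in S487D and 7.85% in S487A, was larger than the counting error of at most 3.68% in a library. Without S487D replicate 3 the log2 change was -0.21 (limma adjusted p = 0.0737), and without S487D replicate 2 it was -0.05 (adjusted p = 0.638).

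Both MYT1-type genes fell. St18, on chromosome 5 from 12437617 to 12565774, had 14.1, 14.4 and 13.8 RPKM in S487D and 21.7, 20.2 and 19.97 RPKM in S487A. The groups lie well apart, and the S487D libraries differ little among themselves. The log2 change was -0.52 (SE 0.051, limma adjusted p = 3.95e-05), a fall of 1.43-fold, on 1259 to 2117 reads per library. It had the smallest adjusted p of the 8 factors. Myt1, on chromosome 3 from 177281192 to 177341550, had 17.3, 15.8 and 17.1 RPKM in S487D and 22.2, 21.2 and 20.2 RPKM in S487A. These groups do not overlap either. The log2 change was -0.33 (SE 0.056, limma adjusted p = 0.00126), a fall of 1.25-fold.

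Together St18 and Myt1 had 30.8 ± 0.56 RPKM in S487D and 41.8 ± 1.9 RPKM in S487A. St18 made up 45.8 ± 1.8% of this sum in S487D and 49.3 ± 0.46% in S487A, without overlap, and its fall was the larger on the log2 scale. Both differences gave the smallest exact permutation p of 0.1, two-sided. A further gene of this family, Myt1l, known from neurons, was weaker, at 2.77 ± 0.22 RPKM in S487D and 4.65 ± 0.21 RPKM in S487A, and also fell (log2 change -0.58, SE 0.077, limma adjusted p = 2.54e-04).

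The Myt1 window, chr3:189296804-189297053 on the + strand of GRCr8, is shown because it carries the letters of the MYT1 motif itself. The RefSeq start it belongs to lies inside the gene, downstream of its first base.
Myt1: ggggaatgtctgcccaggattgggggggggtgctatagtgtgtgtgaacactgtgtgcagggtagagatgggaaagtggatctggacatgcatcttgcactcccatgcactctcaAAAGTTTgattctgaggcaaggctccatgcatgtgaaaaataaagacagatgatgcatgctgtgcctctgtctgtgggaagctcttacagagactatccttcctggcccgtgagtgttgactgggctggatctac

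AAAGTTT lies from 135 to 129 bases before this start, and 4.19% of all windows hold it on either strand. No other motif searched occurs there. Of the 8 factors, 5 had an entry among these promoter windows, and none of the windows held the cAMP response element, which 1.59% of all windows hold.

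**Figure D3:**
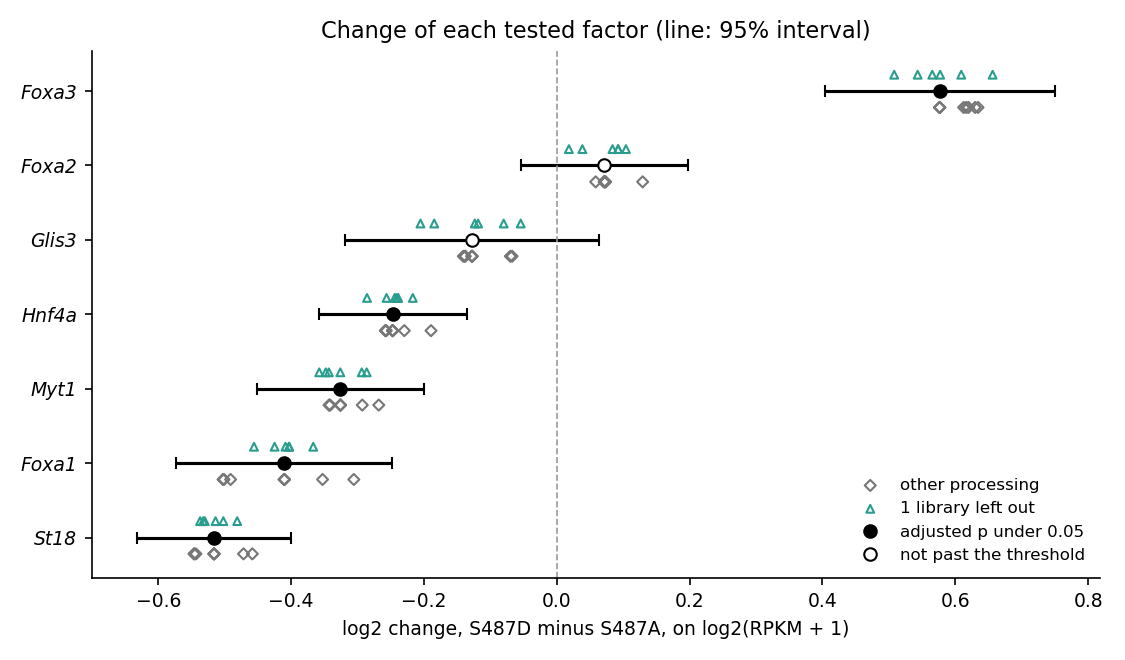
Log2 change of each tested factor, S487D minus S487A, on log2(RPKM + 1), with its 95% interval (filled circle, past the threshold; open circle, not). Triangles give the change with 1 library left out and diamonds the change under other processing; every triangle and diamond lies on the same side of 0 as its circle.

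The factors differ in level. In S487D the order ran from Foxa2 over Hnf4a, Foxa3, Myt1, St18, Glis3 and Foxa1 to Hnf4g, and the ranges of neighbours overlap only between Foxa3 and Myt1. In S487A it ran from Foxa2 over Hnf4a, Myt1, St18, Glis3, Foxa3 and Foxa1 to Hnf4g, with overlap between Myt1 and St18 and between Glis3 and Foxa3. Foxa3 was the third in this order in S487D and the sixth in S487A. Foxa2 was above 82.0% of tested genes in S487D and 81.1% in S487A, and Foxa1 above 24.1% in S487D and 29.7% in S487A.

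Other members of these factor families also went both ways. Among other forkhead genes 18 were tested, of which 4 rose and 5 fell, with a median log2 change of -0.01. Foxm1, which drives cell division genes, had 25.8 ± 1.3 RPKM in S487D and 20.7 ± 0.57 in S487A and rose 1.23-fold, and Foxd2 and Foxk2 rose 1.26-fold and 1.16-fold. The genes that fell were Foxp1 and 4 FOXO genes, which insulin signalling restrains; Foxp1 and Foxo4 were picked out after their values were seen. Foxo6 fell to 70.8 ± 3.9 RPKM in S487D, against 96.2 ± 2.8 in S487A, and Foxo3 to 13.4 ± 1.5 RPKM in S487D, against 22.8 ± 2.2 in S487A. Foxo1 fell by 0.96 on the log2 scale, to 11.0 ± 1.4 RPKM in S487D, against 22.1 ± 0.89 in S487A, a larger change than that of any FOXA gene. Long stretches of shifted genes were seen in earlier work on these data. Foxo1, on chromosome 2, and Foxo3, on chromosome 20, were not compared with their chromosome neighbours here.

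The other nuclear receptors and coregulators numbered 25 with a test, of which 4 rose and 8 fell, with a median log2 change of -0.09, which was -0.03 with median centring and -0.15 without S487D replicate 3. Nr0b2, also known as SHP, a receptor that lacks a DNA-binding domain and inhibits HNF4 and other receptors, had 8.0 ± 0.63 RPKM in S487D and 12.6 ± 0.59 in S487A and fell 1.51-fold (limma adjusted p = 9.79e-05). Rxra, the common partner of many receptors, fell 1.21-fold and the thyroid hormone receptor gene Thra fell 1.23-fold. Esrra, a regulator of mitochondrial genes, had 37.6 ± 1.6 RPKM in S487D and 26.6 ± 1.4 in S487A and rose 1.40-fold, as did the vitamin D receptor gene Vdr. Thrb, with 1.48 ± 0.12 RPKM in S487D and 0.301 ± 0.079 in S487A, and Esrrb, which is higher in S487A, reached the filter level of 1 RPKM in 1 group only, so they had to differ to be tested. Without this pair, 3 of 23 rose and 7 fell.

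Among 7 tested GLI, GLIS and MYT genes and their partners, 1 rose and 2 fell (median log2 change -0.03, which turned to 0.02 with median centring and 0.01 without S487D replicate 2). Besides Myt1l, Glis1 fell, to 1.93 ± 0.35 RPKM in S487D, against 3.55 ± 0.75 in S487A, and the Hedgehog receptor gene Ptch1 rose 1.21-fold. Further liver-enriched factors, 11 of them tested, included 2 that rose and 6 that fell (median log2 change -0.27). Nr0b2, counted above among the receptors, is on this list too and is 1 of the 6. Cebpb and Cebpd, bZIP factors induced in the acute phase response of liver, rose 1.35-fold and 1.38-fold. Prox1, a homeobox factor of liver, pancreas and lymphatic vessels, had 4.65 ± 0.045 RPKM in S487D and 6.98 ± 0.42 in S487A and fell 1.41-fold.

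**Figure D4:**
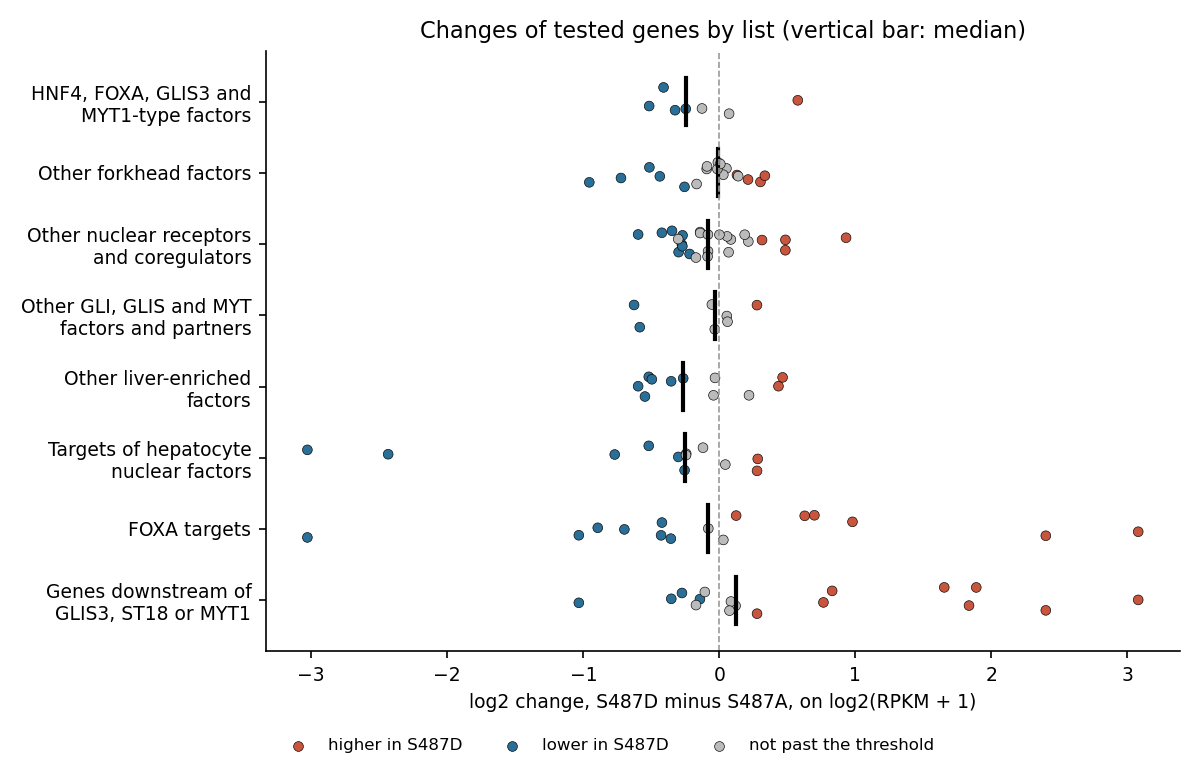
Log2 change, S487D minus S487A, of each tested gene in the lists, with 1 point per gene (red, higher in S487D; blue, lower in S487D; grey, not past the threshold) and a bar at each list's median. The 8 lists spread on both sides of 0, and the points farthest out, beyond 2 in size, are targets and not the factors themselves.

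Some genes described as targets of these factors had larger changes than any of the factors. Of 12 tested targets of hepatocyte nuclear factors in liver, gut or beta cells, 2 rose, 6 fell and 4 passed no test, with a median log2 change of -0.25, which ranged from -0.38 with a pseudocount of 0.01 to -0.14 with no filter. Serpina1, the gene of the liver-secreted protease inhibitor alpha-1 antitrypsin, had 1.18 ± 0.10 RPKM in S487D and 16.8 ± 1.6 in S487A (log2 change -3.03, SE 0.082, limma adjusted p = 1.00e-08). Vil1, villin of the brush border, had 8.57 ± 0.41 RPKM in S487D and 50.7 ± 1.8 in S487A (log2 change -2.43). Hgfac, a secreted protease that activates hepatocyte growth factor, had 14.4 ± 0.53 RPKM in S487D and 25.3 ± 1.1 in S487A. Against these, the glucose transporter gene Slc2a2 had 167 ± 3.6 RPKM in S487D and 137 ± 0.71 in S487A and rose 1.21-fold, as did Anks4b, a brush border scaffold gene, by 1.22-fold. Further listed targets stayed under the filter, 8 of them at 0 in all libraries, among them Ttr, Apoa2 and Fabp1.

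Besides Serpina1 and Vil1, some listed markers of duct, gut and liver epithelium fell. Of 14 duct and gut markers listed 7 were tested and fell, among them Muc1, which reached 1 RPKM in S487A only and so had to differ to be tested. The other 6, Vil1 among them, had a median log2 change of -1.05. Over all 14 listed, the summed level was 941 to 963 RPKM in S487D and 1781 to 1933 RPKM in S487A, mostly from the keratin Krt8, and Spp1 was at 0 in all libraries. Vil1 itself is on that list. Krt7, Krt8 and Krt18 lie close together on chromosome 7, so their falls may not be independent. The summed hepatocyte markers had 125 to 130 RPKM in S487D and 244 to 253 RPKM in S487A, mostly from Ambp, and Serpina1 is on that list. Fgb and Fgg, which both fell, lie close together on chromosome 2. Hp, with a mean of 1.06 RPKM in S487D and in S487A, did not pass the test (log2 change -0.004). Of 14 acinar markers 3 were tested and 6 were at 0 in all libraries, among them Prss1 and Ptf1a. Over all 14 acinar markers the summed level was 11.1 to 11.9 RPKM in S487D and 7.66 to 8.02 RPKM in S487A. Bhlha15 rose, while Ctrb1 reached 1 RPKM in S487D only and Rbpjl in S487A only. The part of these markers in the results on the factors was not tested.

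Of 15 tested FOXA targets, 6 rose and 7 fell (median log2 change -0.08). The proglucagon gene Gcg had 819 ± 41 RPKM in S487D and 96.0 ± 6.6 in S487A, the zinc transporter gene Slc30a8 had 105 ± 6.3 in S487D and 19.0 ± 1.6 in S487A, and the prohormone convertase gene Pcsk2 rose 1.97-fold. Gcg is also 1 of 2 tested alpha and delta cell markers, which both rose. The summed level of all 10 listed was 806 to 887 RPKM in S487D, against 107 to 120 RPKM in S487A. The other 8, Sst at 0 among them, were under the filter. The part of these markers in the results was not tested. Serpina1, which this list shares with the previous one, the homeobox gene Nkx6-1 and the incretin receptor gene Glp1r fell, the last to 26.8 ± 1.6 RPKM in S487D, against 44.0 ± 1.4 in S487A. Nkx6-1 had 4.42 ± 0.43 RPKM in S487D and 10.1 ± 0.53 in S487A. Of 17 tested genes described downstream of GLIS3, ST18 or MYT1 in endocrine pancreas, 8 rose and 4 fell (median log2 change 0.12). Besides Gcg and Slc30a8, which both lists hold, the insulin gene Ins2 rose, to 341 ± 16 RPKM in S487D, against 108 ± 1.4 in S487A. The synaptotagmin gene Syt7 and the islet homeobox gene Pax6 fell 1.28-fold and 1.21-fold, and Nkx6-1, which both lists hold, fell 2.05-fold. The target lists thus did not move in 1 direction, and genes of each were called upward and downward.

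The changes of the called factors were set beside those of their neighbours on the chromosome. St18 has 2 tested genes within 1 Mb, Pcmtd1 (log2 change -0.10) and Rb1cc1 (-0.14), and neither passed the test. Foxa1 also has 2, an uncharacterized gene and the somatostatin receptor gene Sstr1 (0.81), which rose. Within 1 Mb of Hnf4a, 3 of 19 tested genes rose and 6 fell (median log2 change 0.01), with Ttpal on its right at 0.10 and the overlapping uncharacterized transcript on its left at -0.38, neither past the test. Serinc3, farther to the right, fell by 0.32, more than Hnf4a itself. Within 1 Mb of Myt1, 4 of 24 rose and 4 fell (median 0.00), while Pcmtd2 next to it fell by 0.53 on the log2 scale and Rgs19 on its other side had 0.17. Within 1 Mb of Foxa3, 15 of 39 rose and 3 fell (median 0.13), with its neighbours Irf2bp1 at 0.27 and Sympk at 0.03. The change of Foxa3, 0.58, exceeds that of each of its 10 nearest tested genes, which lie between -0.01 and 0.27. Farther out within 1 Mb of Foxa3, Bcam fell by 1.06, a change larger in size. Over all tested genes 20.1% rose and 24.3% fell.

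**Figure D5:**
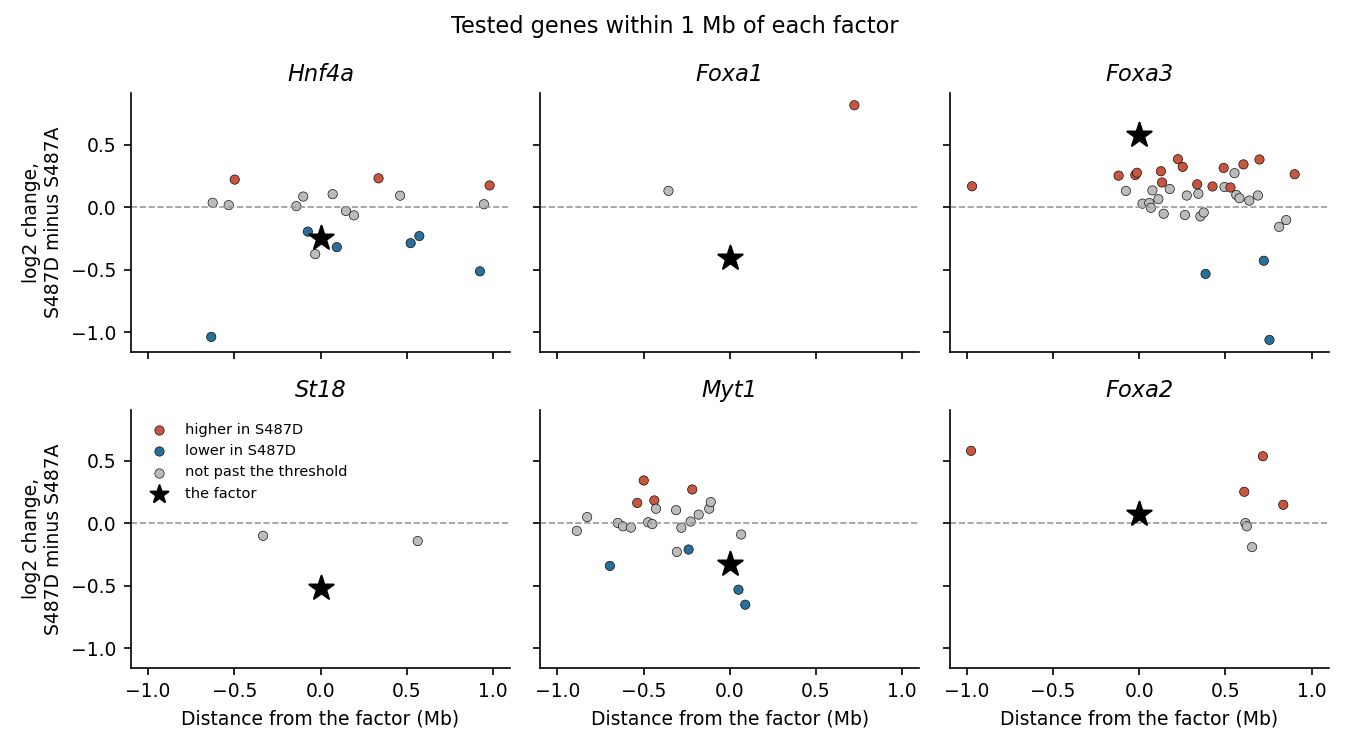
Log2 change, S487D minus S487A, of tested genes within 1 Mb of 6 factors (circles; red, higher in S487D; blue, lower in S487D; grey, not past the threshold), by distance from the factor (star). Around Foxa3 most circles lie slightly above 0 and below the star, while around Hnf4a and Myt1 they scatter about 0.

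The genes whose profiles were most like those of the called factors were sought over all 6 libraries, by the root mean square difference in log2(RPKM + 1) after centring each gene on its mean. For Hnf4a these were Vwa7 (0.0120) and Cnnm1 (0.0132), for Foxa1 Senp1 (0.0307) and Ctr9 (0.0330), and for Foxa3 Ppap2a (0.0440) and Plcl2 (0.0469). For St18 they were Bace1, the beta-secretase gene (0.0292), and Gramd4 (0.0318), and for Myt1 B3gntl1 (0.0131) and Ralgapa1 (0.0147). Profiles this alike were common: 2177 tested genes lay within 0.1 of Hnf4a, 1487 of Myt1, 837 of Foxa1, 626 of St18 and 92 of Foxa3. The 6 libraries are those of only 2 conditions, so the measure mostly compares the size and direction of 1 difference.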

How the data were processed

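Messenger RNA was sequenced from 3 S487D and 3 S487A libraries made with a TruSeq RNA kit, per the labels' protocols. Reads were processed with bcl2fastq 2.17, cutadapt and TopHat2 2.0.13 on rn6 (Rnor_6.0), per the submitters' processing notes. The counting tool and gene annotation were not given in the sources used here. Per gene and library, the authors deposited RPKM, per the file headers. Multiplied by gene length, the RPKM values became whole reads (within 0.05 of a read for at least 99.97% of values in each library), which served for read numbers and counting errors.

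Groups and replicate numbers were read from the titles. Replicates were not duplicates: a chi-square between any 2 libraries of a group had a median of 1.36 to 1.88 times that of counting error alone. Differences were tested two-sided by limma 3.58.1 in R 4.3.3, on log2(RPKM + 1) with a trended prior variance and no covariate, then adjusted by Benjamini-Hochberg. The script was tested on simulated data with 50 genes changed at each size. It recovered 26% of 1.2-fold, 58% of 1.5-fold and 96% of 2-fold changes, and 4.76% of calls were false. Far fewer genes changed there than were called in these data, so these rates need not hold here. Sums, shares and ratios of paralogs were compared with exact permutation tests. Tables and figures were made in Python 3.11.15. Promoter windows are from RefSeq (GRCr8).

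The members, gene lists and tests were chosen with earlier results of these data known. Beyond the members, the text names up to 3 called genes in each direction per list by smallest p, the 2 most similar profiles and the nearest tested neighbours of each called member; 1 gene that this rule takes is not reported here. Marker genes, listed genes at 0, Men1, Esrrb, Serinc3 and Bcam stand outside the rule and were picked after their values were seen. The alternatives tried are named at the end.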

Additional observations from a re-analysis of the deposited data

How the results depend on the processing

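The alternatives were leaving out each library in turn, voom on recovered reads, a replicate block, an untrended prior, median centring, quantile normalization, filters at 0 and 5 RPKM, and pseudocounts of 0.1 and 0.01. All 15 kept each of the 7 tested factors on its side of the threshold and in its direction. At the filter of 5 RPKM, Foxa1 reached that level in S487A only, so it had to differ to be tested there. Calls over all genes ranged from 4578 to 5965, with 5 factors called each time. The replicate numbers are not said to pair the libraries, and deviations of same-numbered libraries correlated at 0.00354, -0.0599 and 0.00998 over 12527 genes. With the replicate block 5335 genes were called, and the log2 change of Hnf4a had an adjusted p = 0.0063. With each library divided by its median, the difference between S487D and S487A in summed level was -3.23 RPKM for the HNF4 genes, against -4.24 as deposited, -9.42 RPKM for St18 and Myt1, against -10.99, and 9.19 RPKM for the FOXA genes, against 6.66. The cause was not tested. The median log2 change of other forkhead genes ranged from -0.06 to 0.05 and that of the GLI, GLIS and MYT genes from -0.06 to 0.05, so neither sign is settled. The medians ranged from -0.15 to -0.03 for other nuclear receptors, -0.38 to -0.13 for liver-enriched factors, -0.38 to -0.14 for targets of hepatocyte nuclear factors, -0.16 to -0.02 for FOXA targets and 0.07 to 0.18 for genes downstream of GLIS3, ST18 or MYT1. Hnf4g rests on 12 to 29 reads per library, and no difference was detected there.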
